A study of Mus musculus with 8 samples.

Results

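The transcriptional effect of αMARCO that was shared by wild-type (WT) and Unc93b1 3d/3d mice was measured in tumor-associated macrophages (TAMs), with all 8 bulk RNA-seq libraries of the series used. αMARCO is the rat IgG1 antibody clone ED31 against the scavenger receptor MARCO, given intravenously at 100 µg on days 3, 6, 9 and 12. All mice were female, on the C57BL/6J background, 8 to 14 weeks old, and carried EO771 breast tumors in the mammary fat pad, from which live TAMs (CD45+CD11b+F4/80+Gr-1-) were sorted at day 21. Unc93b1 3d/3d mice carry a point mutation in Unc93b1, the chaperone that brings the endosomal Toll-like receptors TLR3, TLR7 and TLR9 to their compartment, and lack signaling by these receptors in every cell. Each genotype had 2 control and 2 αMARCO libraries, which makes 4 groups. The sample labels call the controls untreated, the library names call them PBS, and the study's text names an isotype IgG1, so which injection they received is not settled. Each control library came from TAMs pooled from 3 mice, and the pooling of the αMARCO libraries is not given in the sources used here. One Unc93b1 3d/3d control label is written 3d/4d, against its own title.

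MARCO is a collagen-like receptor that binds bacterial surfaces, particles and modified lipoproteins, and in tumors it marks a subset of macrophages. Most macrophages in tumors derive from blood monocytes, and some of them divide after entering the tissue. A cell on its way through division copies its DNA in S phase with the replication helicase and nucleotide-making enzymes, and then builds cyclin B and the spindle and cytokinesis machinery in G2 and M phase. The genes of this second wave share promoter elements, the cell cycle genes homology region TTTGAA and the CCAAT box.

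The library totals ranged from 15182618 to 26411936 counts, and the level taken as detected, 3 counts, was 0.114 to 0.198 CPM (counts scaled to a fixed library total), which covers counting error only. Levels are given as CPM scaled with TMM factors and are compared only within a gene, since CPM is not divided by gene length. Unc93b1 3d/3d αMARCO replicate 2 stood apart. It had 19700 genes with a count, against 20849 to 23152 in the other libraries, and its chi-square per gene against its replicate was 115, compared with 8.27 to 13.2 in the other pairs. Mitochondrial RNA held 1.03 to 1.25% of counts in the control libraries and 1.39 to 2.74% in the αMARCO libraries. Marco, the gene of the antibody's target, held only 1 to 17 counts in a library and was therefore left untested.

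To find which genes changed with αMARCO independently of genotype, all 8 libraries were fitted with a genotype term and a treatment term, so that 4 αMARCO libraries were compared with 4 control libraries. Of 16620 genes tested with edgeR's quasi-likelihood test, 30 were higher (0.181%) and 50 were lower (0.301%) in the αMARCO libraries, with the adjusted p set at 0.05 or less and the log2 fold change at 0.5 or more in size. The smallest adjusted p from edgeR was 0.0154. A gene was termed separated when both αMARCO libraries lay on the same side of both control libraries in WT and again, on the same side, in Unc93b1 3d/3d. By this count 1316 genes were higher in both genotypes (7.92%) and 1207 were lower in both (7.26%), while 1747 genes were separated in opposite directions in the 2 genotypes. These shares over all tested genes are the background for the separated genes of each list below. Separation and the test use the same 8 libraries, so their agreement is partly set in advance. Of the 80 genes that passed the test, 79 were separated the same way. The exception was Itgad, an integrin chain of splenic and other macrophages, which fell in WT from 34.6 and 27.7 to 3.98 and 5.21 CPM but was near the floor in all 4 Unc93b1 3d/3d libraries.

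The number of genes passing the test rested on single libraries. It was 0 without either WT control library or without WT αMARCO replicate 1, 3 without WT αMARCO replicate 2, 2 without Unc93b1 3d/3d control replicate 1 and 50 without Unc93b1 3d/3d control replicate 2. It was 195 without Unc93b1 3d/3d αMARCO replicate 1 and 1403 without the library that stood apart, and these 1403 held all of the 80. A correction of each library for gene length and GC content gave 107 higher and 110 lower genes, 74 of the 80 among them, so that the split between directions was closer to even. In the 4-group model, edgeR called 164 genes for αMARCO in WT and 1 in Unc93b1 3d/3d at the same thresholds, with 3318 and 2051 genes at an unadjusted p under 0.05. No gene passed the test of the difference between these effects, with 2549 at an unadjusted p under 0.05 and a smallest adjusted p of 0.164 by edgeR, while DESeq2 called 208. Across the 16620 genes, Pearson's r between the WT and the Unc93b1 3d/3d effects was 0.02 and Spearman's rho was -0.04, given as a description across genes, which are not independent replicates. The genes that moved the same way in both genotypes are described below.

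**Figure D1:**
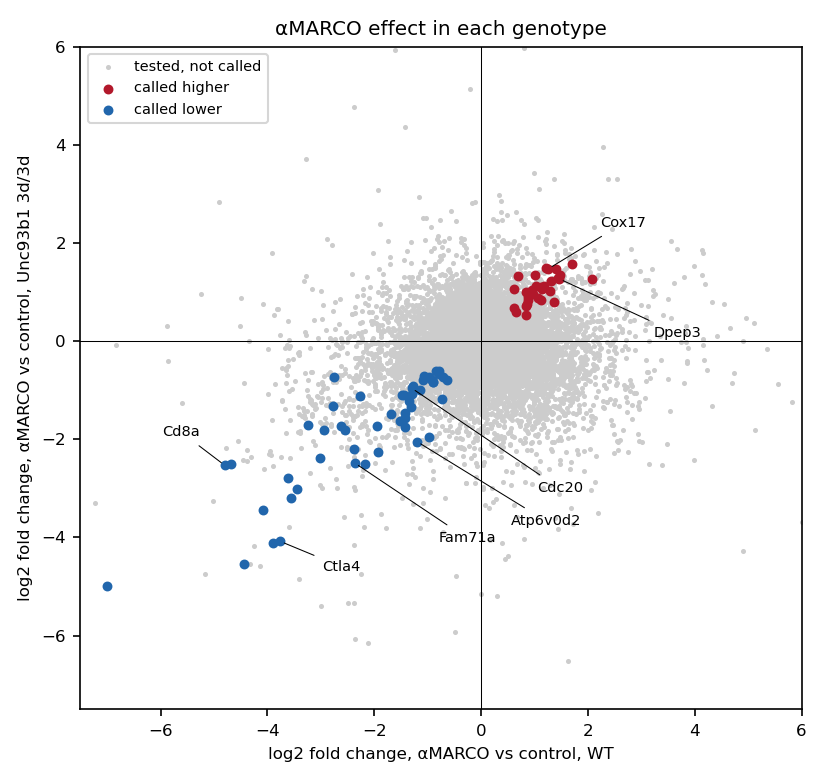
Each point is a gene, placed by its log2 fold change of αMARCO against control in WT (x axis) and in Unc93b1 3d/3d (y axis), with the genes that passed the test of the treatment term in color. The 80 genes that passed lie toward the upper right (30) and the lower left (50), while the cloud of all tested genes has no slope (r = 0.02).

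The clearest pattern in both genotypes was a lower level of mitotic genes. All 45 tested genes of a mitosis and G2/M list had a negative treatment log2 fold change, with a median of -0.69, against 0.01 over all tested genes. Of these 45, 32 (71.1%) were separated lower in both genotypes and 0 were separated higher, and 7 passed the test. The median was nearly the same in both genotypes, -0.72 in WT and -0.71 in Unc93b1 3d/3d, but the Unc93b1 3d/3d value came from unequal replicates. The median log2 CPM of the list was 4.23 and 4.37 in the Unc93b1 3d/3d controls. With αMARCO it was 3.82 in replicate 1 and 3.37 in replicate 2, the library that stood apart. In WT it was 4.34 and 4.67 in control and 3.75 in both αMARCO libraries. Summed over the list, the level was 1280 and 1457 CPM in the WT controls and 942 and 927 CPM after αMARCO. In Unc93b1 3d/3d it was 1182 and 1275 CPM in the controls and 862 and 687 CPM after αMARCO, so that each αMARCO library was below each control library. In the bulk libraries, fewer cells in division and less mitotic RNA per cell cannot be told apart.

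The 7 mitotic genes that fell act from the entry into mitosis to the separation of the daughter cells. Cdc20, the activator of the anaphase-promoting complex, had 26.2 and 28.7 CPM in the WT controls, 17.3 and 22.7 CPM in the Unc93b1 3d/3d controls, and with αMARCO 11.6 and 10.7 CPM in WT and 10.4 and 10.2 CPM in Unc93b1 3d/3d. Every αMARCO library was lower than every control library (log2 fold change -1.13 ± 0.15, SE, adjusted p = 0.031 from edgeR). Cdk1, the kinase that drives entry into mitosis, had 32.7, 36.7, 27.1 and 27.4 CPM in the control libraries, WT first and then Unc93b1 3d/3d as in all lists of 4 values here, and 19.9, 20.1, 16.7 and 19.1 CPM in the αMARCO libraries (log2 fold change -0.70 ± 0.12, adjusted p = 0.0475 from edgeR). Its partner cyclins fell with it. Ccnb2, cyclin B2, went from 28.9, 31.7, 22.6 and 24.0 CPM to 15.1, 15.6, 11.9 and 16.3 CPM (-0.86 ± 0.14, adjusted p = 0.0475 from edgeR), and Ccna2, cyclin A2, which acts in both S phase and G2, went from 39.4, 37.7, 28.8 and 33.3 CPM to 21.5, 19.3, 20.6 and 15.1 CPM (-0.86 ± 0.14, adjusted p = 0.0461 from edgeR). In neither cyclin did the control and αMARCO libraries overlap.

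The other 3 serve the spindle and its midzone, where the cell is later cut. Racgap1, a component of the centralspindlin complex, had 50.9, 56.9, 43.7 and 48.1 CPM in the control libraries and 31.4, 34.2, 29.4 and 25.7 CPM in the αMARCO libraries (log2 fold change -0.73 ± 0.11, adjusted p = 0.0385 from edgeR). Prc1, which crosslinks the microtubules of the midzone, had 28.9, 32.3, 16.0 and 21.5 CPM against 13.4, 14.4, 11.5 and 7.21 CPM (-1.07 ± 0.18, adjusted p = 0.0497 from edgeR). Hmmr, a spindle protein that also binds hyaluronan, had 16.0, 19.0, 12.3 and 15.3 CPM against 6.66, 6.29, 6.87 and 2.99 CPM (-1.45 ± 0.24, adjusted p = 0.0497 from edgeR). Control and αMARCO libraries did not overlap in any of these 3, and Unc93b1 3d/3d αMARCO replicate 2 was the lowest library in each. Pbk, a mitotic kinase and the member nearest to the median of the list, was separated but missed the test (-0.69 ± 0.21, adjusted p = 0.165 from edgeR).

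Not every proliferation marker passed the test. Mki67, the source of the Ki-67 antigen, and Top2a, the topoisomerase that untangles chromosomes, were looked at after their values were seen. Mki67 had 147 and 191 CPM in WT control and 155 and 147 CPM in WT αMARCO, so the WT groups overlapped. In Unc93b1 3d/3d it had 156 and 178 CPM in control and 106 and 54.9 CPM with αMARCO, and the shared log2 fold change was -0.61 ± 0.25 (adjusted p = 0.303 from edgeR). Top2a was separated in both genotypes, from 111, 128, 96.7 and 102 CPM to 78.8, 76.7, 73.6 and 51.9 CPM, and narrowly missed the threshold (-0.64 ± 0.13, adjusted p = 0.0691 from edgeR). Among genes outside the list, Cdca8, a subunit of the chromosomal passenger complex, and Pclaf, a partner of the sliding clamp PCNA, passed the test at -0.86 and -0.94 and were also singled out after the values were seen.

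How many mitotic genes passed the test changed with single libraries, while the direction of the list did not. With each library left out in turn, 0 of 45 passed in 6 of the 8 fits, 11 passed without Unc93b1 3d/3d αMARCO replicate 1 and 33 without the library that stood apart. In these fits 44 or 45 members stayed negative, 32 to 37 were separated lower, and the median lay between -0.74 and -0.65. Over all genes, 3058 to 6175 were separated the same way in these fits, against 2523 with all 8 libraries. Markers of T cells also fell with αMARCO and are given below. The summed T cell level was 13.8 to 211 CPM, and that of the mitotic list was 687 to 1457 CPM. In Unc93b1 3d/3d the T cell sum was 43.5 and 21.2 CPM in control and 14.1 and 13.8 CPM with αMARCO. The part of dividing lymphocytes in the mitotic difference was not tested.

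**Figure D2:**
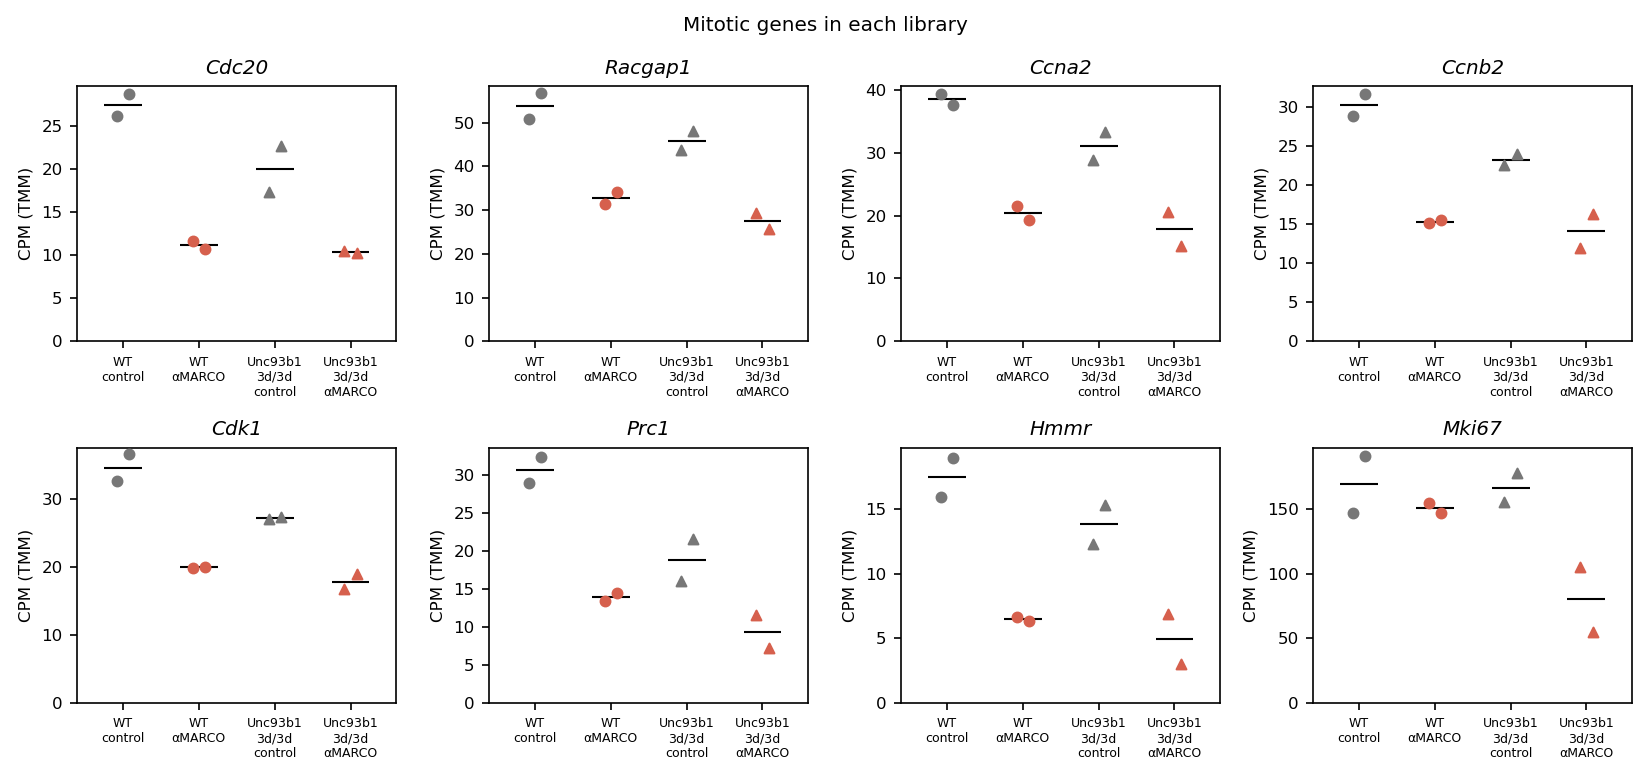
CPM of the 7 mitotic genes that passed the test, and of Mki67, in each library (points) with the group mean (line), WT as circles and Unc93b1 3d/3d as triangles, control in gray and αMARCO in red. In the 7 genes the αMARCO points lie below the control points of the same genotype, and in Mki67 the WT points overlap.

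The stretch of promoter upstream of the transcription start is printed for the mitotic genes that fell, since they moved together and their class is defined by promoter letters. The sequences are from RefSeq on GRCm38.p6, read 5′ to 3′ on the gene's strand, and end at the base before the start. Ccna2 has no printed sequence. Capitals mark each TTTGAA and each CCAAT, on either strand, so that CCAAT on the opposite strand appears as ATTGG.
Cdc20 (chr4:118437344-118437443, minus strand): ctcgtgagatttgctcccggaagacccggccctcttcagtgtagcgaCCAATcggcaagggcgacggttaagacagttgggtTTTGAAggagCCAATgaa
Racgap1 (chr15:99651657-99651756, minus strand): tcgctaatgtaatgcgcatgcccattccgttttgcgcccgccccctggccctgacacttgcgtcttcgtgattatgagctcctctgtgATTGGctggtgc
Ccnb2 (chr9:70421555-70421654, minus strand): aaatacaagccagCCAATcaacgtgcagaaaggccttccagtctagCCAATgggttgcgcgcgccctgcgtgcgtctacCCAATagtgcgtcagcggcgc
Cdk1 (chr10:69352913-69353012, minus strand): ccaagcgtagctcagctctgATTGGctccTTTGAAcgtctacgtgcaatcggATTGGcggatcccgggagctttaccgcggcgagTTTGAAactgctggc
Prc1 (chr7:80294351-80294450, plus strand): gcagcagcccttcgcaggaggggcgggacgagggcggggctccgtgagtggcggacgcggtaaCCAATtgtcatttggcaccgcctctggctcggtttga
Hmmr (chr11:40733438-40733537, minus strand): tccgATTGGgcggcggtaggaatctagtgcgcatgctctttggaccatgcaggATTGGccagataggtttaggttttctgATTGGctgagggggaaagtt

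In this stretch, Cdc20 holds 1 TTTGAA, with its first base 18 bases before the start, and Cdk1 holds 2, at 71 and 15 bases before it. The Prc1 element begins 5 bases before the start and runs over it, so its last base is not printed. In Racgap1 and Hmmr the element lies inside the transcript, beginning at positions 6 and 9, and Ccnb2 holds 1 at position 5 and 1 at 167 bases before the start. All 6 promoters with an entry held both letters within the 300 bases from 250 before the start to 50 after it. Over the whole mitotic list, TTTGAA was found on either strand in 26 of 37 promoters with an entry (70.3%), against 1308 of 10574 (12.4%) for all tested genes and 18.1% of all 27025 promoters of that length. CCAAT was found in 70.3% of the mitotic promoters and 38.6% of those of all tested genes, and both together in 56.8% and 5.01%. The letters of TTTGAA and CCAAT can share at most 1 base. These matches describe the letters in the window and say nothing of which factor was bound in these TAMs.

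Genes of S phase had a median closer to 0. Of 43 tested genes for replication and nucleotide synthesis, 0 passed edgeR's test, 10 were separated lower and 0 higher, and the median log2 fold change was -0.28, with -0.45 in WT and -0.13 in Unc93b1 3d/3d. Tyms, thymidylate synthase, had 16.1, 18, 14.1 and 14.2 CPM in the control libraries and 9.33, 7.91, 9.35 and 7.49 CPM in the αMARCO libraries, without overlap, and missed the threshold by little (log2 fold change -0.86 ± 0.15, adjusted p = 0.0513 from edgeR). Mcm5, Mcm2 and Rrm1, parts of the helicase and of ribonucleotide reductase, were separated as well, with log2 fold changes of -0.60, -0.54 and -0.56 and adjusted p of 0.0724 to 0.0839 from edgeR. Only 4 of 36 S phase promoters (11.1%) held TTTGAA, while 61.1% held CCAAT. Without the library that stood apart, the median of the S phase genes was -0.34.

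Among the genes with the steepest shared fall were markers of T cells and other lymphoid cells, which the sort was meant to leave out. Of 17 tested T cell genes, 12 (70.6%) were separated lower, 0 were separated higher, all 17 had a negative log2 fold change and 4 passed the test (Cd8a, Cd3g, Lck and Zap70). The median was -2.26, with -2.87 in WT and -1.42 in Unc93b1 3d/3d. With each library left out in turn, 0 of the 17 passed in 5 of the 8 fits, 5 without Unc93b1 3d/3d αMARCO replicate 1, 7 without Unc93b1 3d/3d control replicate 2 and 14 without Unc93b1 3d/3d αMARCO replicate 2, while all 17 stayed negative. The summed T cell level was 187 and 211 CPM in the WT controls and 20.2 and 30.8 CPM after αMARCO. It was 43.5 and 21.2 CPM in the Unc93b1 3d/3d controls and 14.1 and 13.8 CPM after αMARCO. The WT control libraries thus stood far above the rest, and the Unc93b1 3d/3d controls were near the level of WT αMARCO.

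Cd8a, a chain of the co-receptor of cytotoxic T cells, had 15.7 and 20.3 CPM in WT control and 0.534 and 0.734 CPM in WT αMARCO. In Unc93b1 3d/3d it had 1.32 and 0.355 CPM in control and 0.136 in both αMARCO libraries, which together held 5 counts, so the size of the change in that genotype is poorly fixed (shared log2 fold change -4.25 ± 0.56, adjusted p = 0.031 from edgeR). Among the genes that passed the test as lower with a mean of at least 1 CPM, Ctla4 ranked first by its smaller within-genotype effect. It is the inhibitory receptor of activated and regulatory T cells. It had 11.4, 10.8, 2.51 and 1.42 CPM in the control libraries and 0.437, 1.16, 0.0904 and 0.136 CPM in the αMARCO libraries, with 4 counts in all in Unc93b1 3d/3d αMARCO (-3.85 ± 0.39, adjusted p = 0.0187 from edgeR). Lck, the kinase that starts T cell receptor signaling, had 19.8, 19.3, 5.4 and 2.44 CPM against 2.48, 2.59, 1.36 and 0.817 CPM (-2.44 ± 0.35, adjusted p = 0.031 from edgeR). Its partner kinase Zap70 and the receptor chain Cd3g had log2 fold changes of -2.24 and -2.67. Cd3e, the member nearest to the median of the list, did not pass (-2.26 ± 0.57, adjusted p = 0.118 from edgeR). Gimap4 and Gimap7, GTPases of lymphocyte survival, fell by 2.30 and 2.80, and Camk4, a calcium-dependent kinase of T cells and neurons, by 2.07.

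Several other lists of cell type markers had negative medians but few calls. Over all tested genes, 7.26% were separated lower. Of 12 NK cell genes, 4 were separated lower and 0 passed, with a median of -1.61; Gzmb, the protease of cytotoxic granules, went from 63.4, 57.8, 16.5 and 4.67 CPM to 3.93, 7.22, 2.98 and 2.86 CPM (log2 fold change -2.70 ± 0.48, adjusted p = 0.0525 from edgeR). Of 11 genes of mature migratory dendritic cells, 2 were separated lower, and the median of -1.60 came from WT, with -2.77 there and -0.27 in Unc93b1 3d/3d. Of 12 neutrophil genes, 3 were separated lower and Ltf, the lactoferrin of neutrophil granules, passed, from 4.37, 5.38, 1.01 and 0.305 CPM to 0.291, 0.27, 0.0904 and 0 CPM. The Unc93b1 3d/3d αMARCO libraries held 2 Ltf counts together, below the floor of 3 counts. Of 16 fibroblast genes, 3 were separated lower and 0 passed, with a median of -0.86. The sort was stated to be over 90% pure, and the NK cell and mature dendritic cell lists had a lower median level in each genotype without overlap, while the neutrophil and fibroblast lists overlapped in Unc93b1 3d/3d. The NK cell gap in Unc93b1 3d/3d was narrow, with a median log2 CPM of 1.22 and -0.17 in control and -0.36 and -0.23 with αMARCO. Summed levels did not always follow. The NK cell sum fell in WT from 184 and 163 CPM to 51.3 and 61.0 CPM. In Unc93b1 3d/3d it overlapped, with 73.2 and 45.7 CPM in control and 50.9 and 68.5 CPM with αMARCO. The neutrophil sum was 361 and 336 CPM in the WT controls and 388 and 387 CPM after αMARCO. The B and plasma cell and classical monocyte lists had medians of 0.03 and 0.05 with 0 called genes. The type 2 dendritic cell list had -0.20, with -0.71 in WT and 0.21 in Unc93b1 3d/3d. In that list 1 member, Tnip3, passed as higher. Whether fewer such cells were carried along or TAMs held less of these transcripts cannot be told apart.

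**Figure D3:**
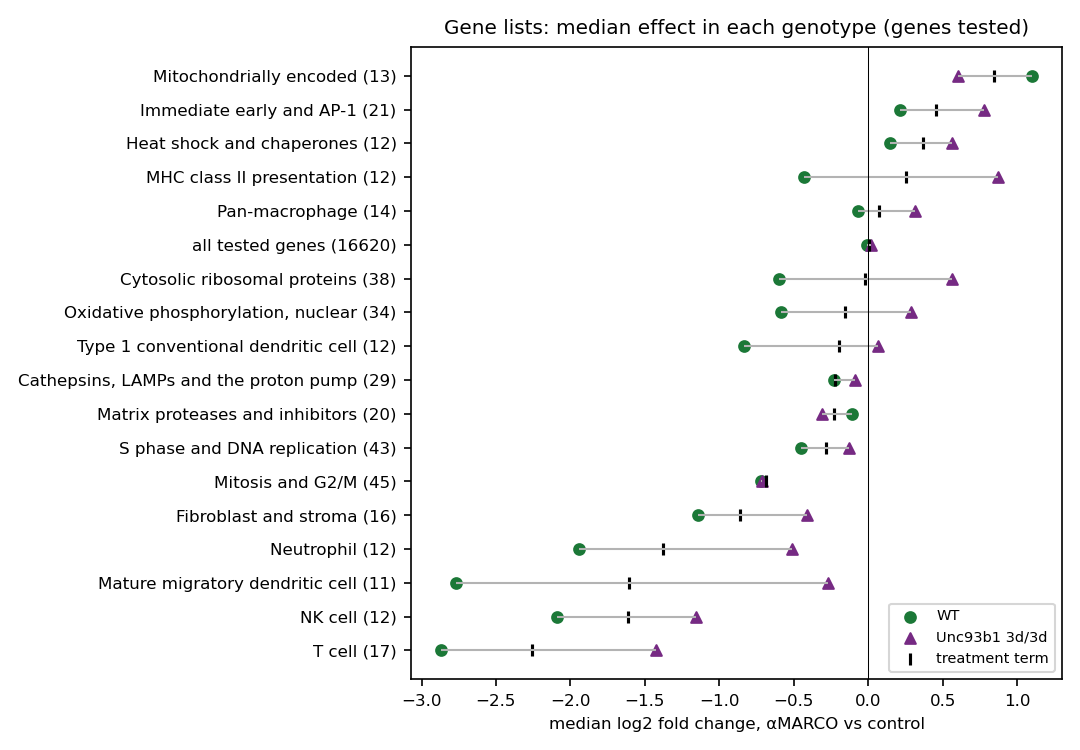
Median log2 fold change of αMARCO against control over the tested genes of each list, in WT (circles), in Unc93b1 3d/3d (triangles) and for the shared treatment term (black bars), with the number of tested genes in parentheses. The circle and triangle of the mitosis list coincide at -0.72 and -0.71, those of the T cell list are at -2.87 and -1.42, and those of the ribosomal and MHC class II lists lie on opposite sides of 0.

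Genes of dendritic cells, adhesion and the lysosome were also among those that fell in both genotypes. Cadm1, an adhesion molecule and marker of type 1 conventional dendritic cells, had 181, 188, 60.5 and 81.7 CPM in the control libraries and 61.9, 70.8, 31.7 and 35.0 CPM in the αMARCO libraries (log2 fold change -1.29 ± 0.14, adjusted p = 0.0263 from edgeR). Each αMARCO library was below the controls of its genotype, although WT αMARCO was as high as Unc93b1 3d/3d control. Itgae, the CD103 integrin of these cells and of tissue T cells, fell by 1.85 on the log2 scale. Of the 12 genes of this dendritic cell list, these 2 passed and 3 (25%) were separated lower. The shared median was -0.20, with -0.83 in WT and 0.06 in Unc93b1 3d/3d. In Unc93b1 3d/3d the median log2 CPM of the list overlapped, with 4.44 and 4.46 in control and 4.38 and 5.05 with αMARCO. Vcam1, the ligand of the integrin VLA-4, singled out after its values were seen, had 86.3, 94.3, 87.5 and 104 CPM against 42.8, 49.6, 18.4 and 31.6 CPM (-1.45 ± 0.24, adjusted p = 0.0497 from edgeR).

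Atp6v0d2 and Ctsk, both known from osteoclasts and from macrophages with high lysosomal activity, fell as well. Atp6v0d2, a subunit of the vacuolar proton pump, had 10.6, 13.5, 18 and 24.9 CPM in the control libraries and 4.66, 5.83, 4.11 and 6.33 CPM in the αMARCO libraries (log2 fold change -1.62 ± 0.25, adjusted p = 0.0445 from edgeR). Ctsk, cathepsin K, a protease that cuts collagen, had 13.2, 19.5, 9.49 and 7.16 CPM against 4.86, 5.33, 3.12 and 2.79 CPM (-1.59 ± 0.20, adjusted p = 0.031 from edgeR). In both genes the control and αMARCO libraries did not overlap. A list of other cathepsins, lysosomal membrane proteins and pump subunits, which holds Atp6v0d2 but not Ctsk, had a median of -0.22 over 29 tested genes. Of these, 5 were separated lower (17.2%) and 1 higher (3.45%), and only Atp6v0d2 passed. Over all tested genes, 7.26% were separated lower and 7.92% higher. Among 20 matrix proteases and inhibitors, 5 were separated lower (25%), 1 was separated higher (5%) and 0 passed. Timp2, an inhibitor of matrix metalloproteinases, had 251, 234, 325 and 391 CPM against 167, 156, 206 and 257 CPM (-0.61 ± 0.13, adjusted p = 0.0707 from edgeR).

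Several genes with a steep and shared fall belonged to no list. Fam71a, a gene known mainly from testis, had 3.85 and 4.44 CPM in the WT controls, 10.7 and 12.5 CPM in the Unc93b1 3d/3d controls, and 0.534, 1.04, 2.03 and 2.11 CPM in the αMARCO libraries. Its log2 fold change was -2.36 in WT and -2.49 in Unc93b1 3d/3d, from control levels that did not overlap (shared log2 fold change -2.43 ± 0.24, adjusted p = 0.0187 from edgeR). Adam23, an integrin-binding protein without protease activity, had 16.8, 9.54, 6.85 and 4.01 CPM against 0.632, 1.47, 1.13 and 0.34 CPM, and Itgb8, an integrin chain that activates TGF-β, had 3.42, 4.38, 1.89 and 1.17 CPM against 0.486, 0.232, 0.271 and 0.068 CPM. Their log2 fold changes were -3.24 and -3.26. Scin, an actin-severing protein, fell by 3.94, Arhgap28, a GTPase-activating protein, by 3.44, and Neb, the giant actin-binding protein nebulin, by 2.30. Dendritic cells also express some of these genes, and their source among the sorted cells was not tested.

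Among the genes that rose, 12 of the 30 were protein-coding. Il1rn encodes the antagonist of the interleukin-1 receptor. It had 361, 411, 345 and 355 CPM in the control libraries and 636, 766, 651 and 528 CPM in the αMARCO libraries, without overlap (log2 fold change 0.81 ± 0.13, adjusted p = 0.0475 from edgeR). Tnfsf9, the ligand of the T cell costimulator 4-1BB, had 90.0, 94.7, 74.0 and 73.3 CPM against 137, 145, 150 and 156 CPM (0.83 ± 0.12, adjusted p = 0.035 from edgeR), and was the one gene of 15 checkpoint and B7 ligands that passed. Tnip3, an inhibitor of NF-κB signaling induced by that pathway, had 23.7, 23.4, 14 and 17.0 CPM against 39.6, 44.6, 25.9 and 25.2 CPM (0.78 ± 0.12, adjusted p = 0.0385 from edgeR). Its groups were separated within each genotype, although Unc93b1 3d/3d αMARCO lay only slightly above WT control. Cxcl11, an interferon-induced chemokine gene that the tables list as a polymorphic pseudogene, was singled out after its values were seen and is not among the 12. It had 12.3, 12.2, 18 and 15.8 CPM against 22.2, 27.5, 34.2 and 40.1 CPM (1.08 ± 0.13, adjusted p = 0.031 from edgeR).

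The steepest protein-coding rises were seen at genes whose reads may be shared with neighbors or copies. Dpep3, a membrane dipeptidase, had 5.16, 3.99, 10.5 and 10.4 CPM in the control libraries and 11.8, 13.6, 22.1 and 28.3 CPM in the αMARCO libraries (log2 fold change 1.37 ± 0.16, adjusted p = 0.0307 from edgeR). Dpep2 lies beside it on chromosome 8, is listed under 2 overlapping identifiers, and rose by 1.15 under the one that passed, so both values are uncertain. Cox17, a copper chaperone of cytochrome c oxidase, had 6.74, 5.88, 8.80 and 7.16 CPM against 15.7, 14.6, 24.5 and 19.9 CPM (1.37 ± 0.15, adjusted p = 0.0263 from edgeR), with no overlap between control and αMARCO libraries. Zfp992, one of many similar zinc finger genes, also rose, by 0.96 in WT and 1.04 in Unc93b1 3d/3d on the log2 scale. AI606181, a protein-coding gene whose clone-like name keeps it out of the leading genes, had 5.48, 5.16, 5.66 and 4.87 CPM against 13, 11.9, 10.3 and 19.4 CPM (1.36 ± 0.22, adjusted p = 0.0467 from edgeR). Smaller rises were seen in Luc7l3, a splicing factor, which had 160, 166, 173 and 182 CPM against 256, 259, 267 and 269 CPM (0.63 ± 0.10, adjusted p = 0.0467 from edgeR). Its replicates lay close together, and the genotypes hardly differed. Soat2, which esterifies cholesterol, rose by 0.69, and Dpysl2, a regulator of microtubules, by 0.64. Tmem132a, Nfkbid, Rab40c and Ets2 were the next in rank and just missed the test, with adjusted p of 0.0509 to 0.0525 from edgeR and log2 fold changes of 0.61 to 1.01.

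**Figure D4:**
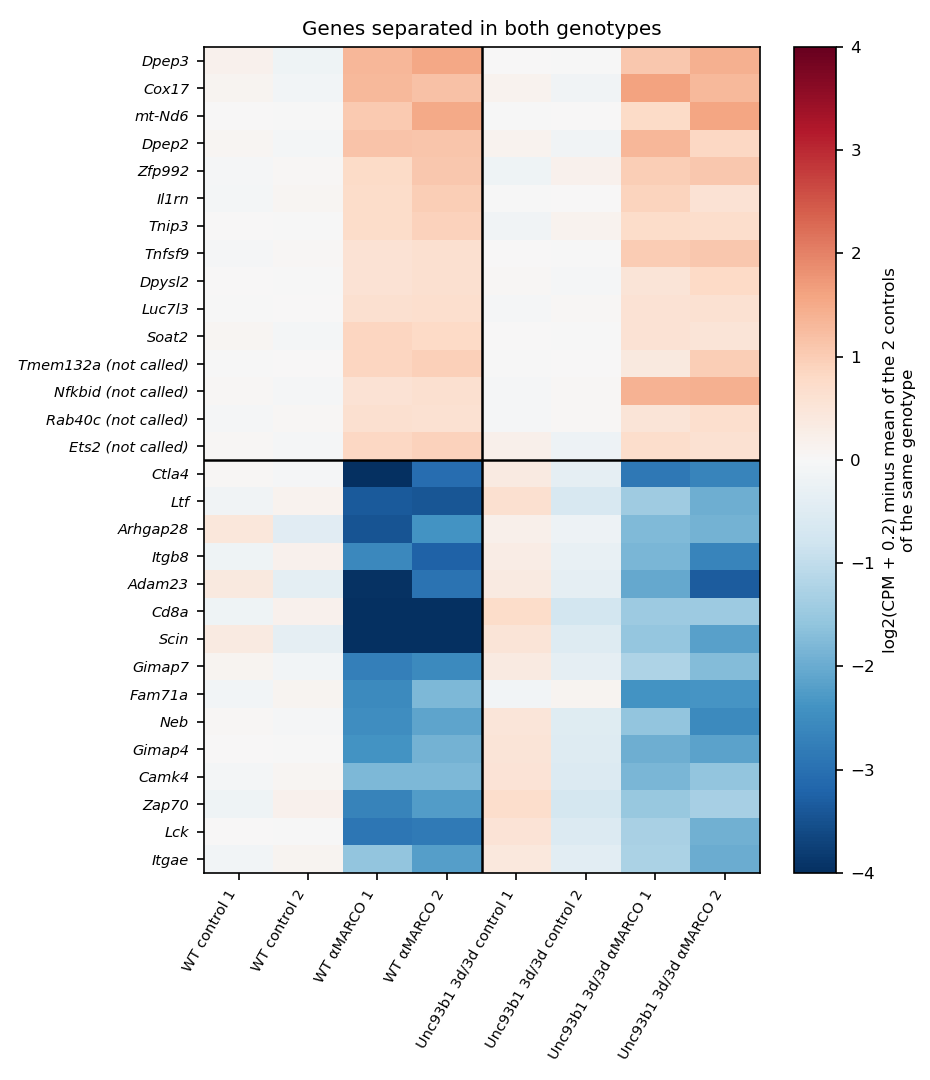
Each cell gives a gene's log2(CPM + 0.2) in a library minus the mean of the controls of the same genotype, red for higher and blue for lower, with colors capped at 4, for the 15 genes that lead in each direction. The αMARCO columns of both genotypes are red in the upper block and blue in the lower block, and the lower block is darker in WT.

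Transcripts of the mitochondrial genome were higher with αMARCO in both genotypes. All 13 protein-coding mitochondrial genes had a positive log2 fold change, with a median of 0.84, of 1.10 in WT and of 0.60 in Unc93b1 3d/3d, and 8 were separated higher. Their summed level was 10334 and 9957 CPM in the WT controls and 22586 and 26923 CPM after αMARCO. In Unc93b1 3d/3d it was 11416 and 10908 CPM in the controls and 19387 and 14482 CPM after αMARCO, without overlap. One gene passed the test, mt-Nd6, a subunit of complex I and the one protein encoded on the light strand. It had 115, 111, 118 and 123 CPM in the control libraries and 235, 322, 206 and 362 CPM in the αMARCO libraries (log2 fold change 1.27 ± 0.19, adjusted p = 0.0385 from edgeR). Since the strand setting of the counting is not given in the sources used here, mt-Nd6 and RNA read from the opposite strand cannot be told apart. mt-Nd1, mt-Nd2 and mt-Cytb came next, with log2 fold changes of 0.91, 0.84 and 0.84 and adjusted p of 0.0555 to 0.0607 from edgeR. Nuclear genes for the respiratory chain had a median of -0.15 over 34 genes, of -0.59 in WT and of 0.29 in Unc93b1 3d/3d, and none was separated or passed. Without Unc93b1 3d/3d αMARCO replicate 2, the median of the 13 mitochondrial genes was 0.94. In the same fit all 34 nuclear genes were negative, 24 were separated lower and the median was -0.45. Over all genes of that fit, 6175 were separated the same way, against 2523 with all 8 libraries. The shares given for all 8 libraries are therefore not the background of these counts.

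Immediate early genes, which are induced within minutes of a stimulus, had positive medians in both genotypes without passing the test. Of 21 tested, 10 were separated higher, 0 were separated lower, 19 had a positive log2 fold change and the median was 0.46, with 0.21 in WT and 0.78 in Unc93b1 3d/3d. The median log2 CPM of the list overlapped in WT, with 8.69 and 8.44 in control and 8.37 and 8.88 with αMARCO. Without Unc93b1 3d/3d αMARCO replicate 2, the median log2 fold change of the list was 0.34. The summed level of the list was 13337 and 13109 CPM in WT control and 13835 and 16834 CPM in WT αMARCO. In Unc93b1 3d/3d it was 10836 and 9984 CPM in control and 16476 and 20003 CPM with αMARCO. Atf3, a stress-induced transcription factor, had 750, 804, 628 and 594 CPM against 992, 1281, 1145 and 1227 CPM (log2 fold change 0.75 ± 0.15, adjusted p = 0.066 from edgeR). Nr4a1 and Klf2, transcription factors that restrain inflammation in macrophages, had log2 fold changes of 0.87 and 0.91, and Myc had 0.53, all separated, with adjusted p of 0.0793 to 0.134 from edgeR. Against 7.92% separated higher over all tested genes, 3 of 12 heat shock genes were separated higher (25%), 0 lower and 0 passed. Among these, Hsp90aa1, an inducible chaperone, had 733, 848, 771 and 589 CPM against 1138, 1620, 1257 and 1101 CPM (0.80 ± 0.17, adjusted p = 0.0726 from edgeR). The mitochondrial share of counts was 1.03 to 1.25% in control and 1.39 to 2.74% with αMARCO. This share and the heat shock median were higher with αMARCO in each genotype without overlap. The immediate early median was not, since WT αMARCO replicate 1 had 8.37, the lowest in WT, at a mitochondrial share of 2.37%. Unc93b1 3d/3d αMARCO replicate 2 had the lowest share with αMARCO, 1.39%, and the highest immediate early sum, 20003 CPM. The part of the mitochondrial share in these lists was not tested.

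**Figure D5:**
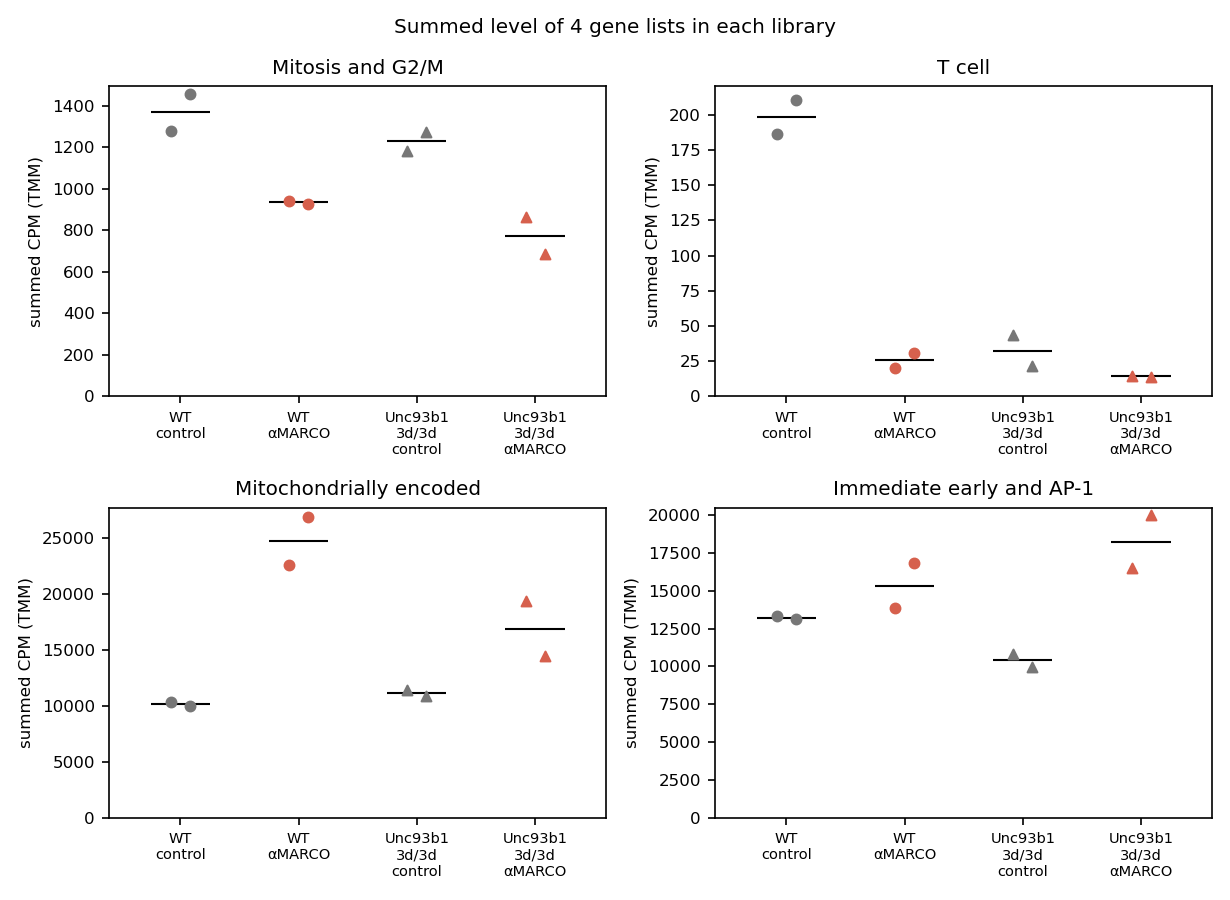
Summed CPM over the tested genes of 4 lists in each library (points) with the group mean (line), WT as circles and Unc93b1 3d/3d as triangles, control in gray and αMARCO in red. The mitosis list is lower and the mitochondrially encoded list is higher with αMARCO in both genotypes, the T cell list is high only in the WT control libraries, and the immediate early list differs most in Unc93b1 3d/3d.

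The identity markers of macrophages had a shared median near 0 as a list. Of 14 pan-macrophage genes, 4 were separated higher (28.6%), 2 were separated lower (14.3%) and 0 passed. The shared median was 0.07, with -0.07 in WT and 0.31 in Unc93b1 3d/3d. In Unc93b1 3d/3d the median log2 CPM of the list was 9.12 and 9.13 in control and 9.21 and 9.64 with αMARCO. Over all tested genes, 7.92% were separated higher and 7.26% lower. The genes behind the sort gate went different ways. Adgre1, the gene of F4/80, had 574, 720, 479 and 544 CPM in the control libraries and 444, 439, 373 and 331 CPM in the αMARCO libraries (log2 fold change -0.55 ± 0.13, adjusted p = 0.0949 from edgeR). Itgam, the gene of CD11b, had 491, 500, 291 and 342 CPM against 586, 722, 422 and 512 CPM (0.48 ± 0.14, adjusted p = 0.148 from edgeR). Both were separated within each genotype. Cd14, the co-receptor for lipopolysaccharide, was separated higher as well (log2 fold change 0.91 ± 0.29, adjusted p = 0.198 from edgeR), and Unc93b1 3d/3d αMARCO replicate 2 was its highest library. Adgre1 and Itgam were thus well above the detection floor in all 8 libraries.

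A list of receptors, cytokines and polarization markers that the study follows had 14 tested genes, of which 0 passed in the shared term by edgeR. Inflammasome components were not in this list. Fcgr2b, the inhibitory Fc receptor, was separated higher, with 1233, 1016, 1417 and 1504 CPM in the control libraries and 1689, 1599, 1743 and 1762 CPM in the αMARCO libraries (log2 fold change 0.41 ± 0.14, adjusted p = 0.216 from edgeR). Cd86, a costimulatory ligand, was also separated, by a narrow gap in WT, where control had 140 and 98.2 CPM and αMARCO had 142 and 141 CPM (0.24 ± 0.13, adjusted p = 0.469 from edgeR). The other 12 were not separated the same way. Tlr3, Tlr7 and Tlr9, the receptors that depend on Unc93b1, had shared log2 fold changes of -0.03, -0.27 and -0.35, and Unc93b1 itself had -0.16. Mrc1, the mannose receptor CD206, had 0.10 in WT and -0.85 in Unc93b1 3d/3d, and Cd274, the gene of PD-L1, had 0.22 and -0.57. Il12b, Ccl5 and Cxcl9, cytokines that draw or activate T cells, had shared values of -2.29, -0.88 and -0.61, with adjusted p of 0.135 to 0.441 from edgeR. Il12b had -3.41 in WT (adjusted p = 0.0227 from edgeR) and -0.27 in Unc93b1 3d/3d, and Ccl5 had -1.51 (adjusted p = 0.0385) and -0.23, with a difference that did not pass the test. Arg1 and Nos2, the arginine-metabolizing enzymes used to describe macrophage states, had -1.33 and -0.40.

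For contrast, other lists had medians of opposite sign in the 2 genotypes. Cytosolic ribosomal protein genes had a shared median of -0.02, with -0.60 in WT and 0.56 in Unc93b1 3d/3d, and MHC class II genes had 0.25, with -0.43 and 0.87. In none of the 38 ribosomal and 12 MHC class II genes were both genotypes separated the same way. The positive ribosomal median in Unc93b1 3d/3d rested on αMARCO replicate 2, with a summed level of 36287 CPM, while replicate 1 had 18360 CPM, below the controls at 18577 and 19404 CPM. Without that library all 38 ribosomal genes were negative, 25 were separated lower and the median was -0.38. The MHC class II median was -0.12. Over all genes of that fit, 6175 were separated the same way, against 2523 with all 8 libraries. The genes with the smallest p of the interaction are Dgat2, Gas6, Abca1, Matn2, Siglece and Ccr7. None passed the test of the difference, with adjusted p of 0.164 for Dgat2, an enzyme of triglyceride synthesis, and 0.281 for the others from edgeR. Dgat2 had 10.3 and 7.05 CPM in the WT controls and 7.43 and 10.8 CPM after αMARCO, against 126 and 118 CPM in the Unc93b1 3d/3d controls and 10.7 and 13.7 CPM after αMARCO.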

How the data were processed

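The authors prepared the bulk libraries from sorted TAMs and processed the reads with fastp (cleaning), HISAT2 2.0.5 (alignment) and featureCounts 1.5.0 (counting per gene), with GRCm38 named in the submitters' processing notes. The deposited raw counts, from 3 tables that each hold 4 libraries, carry no normalization and were the values used here. The tables also hold the authors' normalized values, FPKM, group means, fold changes and p-values (DESeq2 1.40.2), which were not used. Joined on their gene identifiers, the tables gave 26939 genes, a missing gene counting as 0. Of 95230 counts present in 2 tables, 0 differed, and a gene missing from 1 table had at most 1 count there. The strand setting is not given in the sources used here, and the scRNA-seq samples were not analysed here.

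In R 4.3.3 with edgeR 4.0.16 (limma 3.58.1), genes were kept by filterByExpr on the 4 groups, scaled by TMM and tested with robust quasi-likelihood fits of genotype plus treatment over 8 libraries, with Benjamini-Hochberg adjustment. Within-genotype effects and the interaction came from a 4-group model. Separation was read from log2 CPM with a prior count of 2. Genes named are the 15 leading in each direction (protein-coding, with a name that is not a Gm, Rik, clone or numeric name, mean CPM of at least 1, separated the same way, called genes first, ranked by the smaller within-genotype effect), up to 4 members of a list by p and its called members, the mechanism genes and the leading interaction genes. Members, lists and alternatives were chosen with earlier results of these data known, so counts over a list are descriptions. Whether replicates of a group are separate pools of mice is not stated, so p-values measure only the spread between these libraries, which may be technical. On simulated data with this design, 46 of 50 genes at a log2 fold change of -2 and 32 of 50 at -1 were called. At 1 it was 31 of 50, at 2 it was 47 of 50, and 7 of 15980 unchanged genes were called. These rates describe the simulated data only. Whether they hold for genes with few counts, or where a library stands apart as in the real data, was not tested. Alternatives were DESeq2 1.42.0, other scaling, filters and thresholds, a replicate block, single genotypes and each library left out. A per-library correction for GC content and gene length (mgcv 1.9.3, 97.9% of tested genes) was added after the data were seen.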

Additional observations from a re-analysis of the deposited data

Results flagged for a closer look

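Among the genes named above for the smallest interaction p, 4 moved in opposite directions in the 2 genotypes without overlap. Over all 16620 tested genes, 1747 did so. The interaction log2 fold change, WT effect minus Unc93b1 3d/3d effect, was -1.66 for Siglece, an inhibitory sialic acid receptor (WT -1.16, Unc93b1 3d/3d 0.50), and -2.55 for Matn2, a matrix protein (WT -1.83, Unc93b1 3d/3d 0.73). It was 1.48 for Gas6, a ligand of the receptors that clear dying cells (WT 0.45, Unc93b1 3d/3d -1.03), and 2.42 for Abca1, a cholesterol exporter (WT 1.19, Unc93b1 3d/3d -1.22). The adjusted p of the difference was 0.281 for each from edgeR, so none passed.

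The median level of the MHC class II list also moved in opposite directions. On the log2 CPM scale the effect of αMARCO was -0.40 in WT and 0.96 in Unc93b1 3d/3d, a difference of -1.35 that was not tested.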

How the results depend on the processing

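The number of genes passing the test of the treatment term, 80 (30 higher and 50 lower, 79 separated the same way), depended strongly on the processing. DESeq2 gave 807 (320 and 487, 709 separated), no low-count filter gave 274 (100 and 174, 263), the mean of the within-genotype contrasts gave 308 (128 and 180, 285) and no robust estimation gave 121 (47 higher, 120 separated). Correcting for GC content and gene length gave 217 (107 and 110, 215). A log2 threshold of 1 left 18 higher genes. WT alone gave 164 (119 lower), and Unc93b1 3d/3d alone gave 1 (0 higher, 1 lower, 0 separated). The replicate block gave 7 (2 and 5, 7), and with the length and GC correction 28 (12 and 16, 28). Same-numbered libraries deviated together with correlations across genes of -0.08 to 0.14. With a single replicate difference in each group, these values cannot decide whether the numbers pair the samples. With each library left out, the counts ranged from 0 to 1403 (higher 0 to 534, lower 0 to 869, separated 0 to 1355). The interaction calls, 0 as reported, were 208 with DESeq2, 152 without the filter, 2 with the length and GC correction and 0 to 6440 with a library left out. Genes separated the same way, 2523, numbered 1561 under a log2 fold change of at least 0.5 in each genotype and 3058 to 6175 with a library left out, where fewer libraries make separation easier. Pearson's r between genotypes ranged from -0.13 to 0.26 and Spearman's rho from -0.18 to 0.29 with a library left out. Where a group kept 1 library, it was assumed to vary like the others. The T cell median was -2.87 in WT alone and -1.42 in Unc93b1 3d/3d alone, and the immediate early median was 0.78 in Unc93b1 3d/3d alone. The MHC class II median turned to -0.43 in WT alone, the ribosomal median to 0.56 and the nuclear respiratory chain median to 0.29 in Unc93b1 3d/3d alone. Of the values for named genes, 867 kept their side of the threshold, 324 lost it, 146 gained it and 0 changed direction. The leading genes were chosen for separation in these same libraries, so a change of direction was unlikely for them. Apart from the alternatives' own construction, the causes were not tested. A gene with under 3 counts in a library was not detectable at this depth.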

Other observations

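Classes of RNA were split unevenly among the genes separated the same way in both genotypes. Over all tested genes, 7.92% were separated higher and 7.26% lower. Of 474 lincRNAs tested, 70 were separated higher (14.8%) and 20 lower (4.22%). Of 248 processed transcripts, 29 were higher (11.7%) and 6 lower (2.42%). Of 629 antisense RNAs, 55 were higher (8.74%), near the share over all tested genes, and 12 lower (1.91%). Processed pseudogenes went the other way from lincRNAs, with 38 higher (4.10%) and 97 lower (10.5%) of 927. Protein-coding genes were even, with 980 higher and 1016 lower of 12741. The share of counts on lincRNAs was 0.696 to 1.19% in the control libraries and 0.723 to 1.21% in the αMARCO libraries, so the totals overlapped. Without the strand setting, antisense RNAs cannot be told apart from their partner genes.

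Some of the genes with the smallest p were not protein-coding by the tables or not unique in sequence, and were singled out after their values were seen. Thap6, listed as a transcribed pseudogene, had 40.2, 49.2, 77.1 and 64.4 CPM in the control libraries and 120, 130, 179 and 182 CPM in the αMARCO libraries (log2 fold change 1.42 ± 0.12, adjusted p = 0.0154 from edgeR). Rps29, a ribosomal protein gene with many copies, had 590, 626, 479 and 503 CPM against 220, 257, 186 and 235 CPM (-1.29 ± 0.13, adjusted p = 0.0187 from edgeR), while the list of the other ribosomal protein genes had a shared median of -0.02. AU020206, a long non-coding RNA, had 129, 128, 125 and 136 CPM against 200, 211, 340 and 314 CPM (log2 fold change 0.68 in WT and 1.33 in Unc93b1 3d/3d, shared adjusted p = 0.0385 from edgeR).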
